A study of Ictidomys tridecemlineatus with 15 samples.

Results

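Entrance into torpor (Ent) was compared with the line that joins the warm and the cold liver of the hibernating 13-lined ground squirrel. The quantity tested was the departure, the log2 level in Ent minus the average of the log2 levels in interbout arousal (IBA) and early torpor (ET), so that a gene moving on a straight log2 path from warm to cold and standing at its middle has a departure of 0. The rule took 9 of the 15 samples of the series, 3 libraries each of Ent, IBA and ET. A further 3 libraries of summer active animals (SA) and 2 of late torpor (LT) entered the same fit, because all states shared 1 estimate of the spread, and their levels are given as a background.

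Each library was made by global run-on sequencing (GRO-seq) of nuclei isolated from the frozen liver of a different animal, so its reads report RNA in the course of being made. All animals were females housed in the laboratory, and no drug treatment or genetic change is listed, and the labels give no age. IBA animals were hibernators sampled soon after rewarming, early in the short warm period between bouts of torpor. Ent animals were cooling at the end of such a period, after many warm hours. ET animals were cold in the early part of a bout, LT animals were cold late in a bout, and SA animals were euthermic in summer. Time since rewarming thus differed between IBA and Ent, and the midpoint was not set by body temperature or by time. Table totals ranged from 3734769 to 6366886 counts in IBA, 6345826 to 7697181 in Ent, 4819193 to 6740437 in ET, 3713883 to 8884763 in SA and 6374674 to 6516975 in LT. The collection season moved with the state: all 3 ET libraries came from a season that gave no other library, all 3 IBA libraries from another, and of the Ent libraries only replicate 3 shared the IBA season. Season and state therefore cannot be told apart in any value that rests on ET. Levels are given in CPM, counts scaled to the normalised size of each library. A level is thus a share of its library, and a rise or fall of transcription common to all units is not seen. The paper states that scaling by library size hides changes in total transcription between stages.

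Hibernators cycle between torpor, in which body temperature and metabolism fall together, and brief arousals in which the liver is warm again. Entrance is the cooling limb of that cycle, when temperature and the rate of transcription are both on their way down. A gene can depart from the midpoint in several ways. Its level, as a share of the library, can pass above or below both ends, a peak or a dip. It can also stay between them and keep the warm level longer, or take the cold level sooner, than a straight path would.

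Few genes left the line, and on the log2 scale those that did were mostly high. Of 4705 units named for a single gene, 13 (0.276%) lay above the midpoint and 3 (0.0638%) below it at an adjusted p of 0.05 or less (edgeR's quasi-likelihood test, adjusted by Benjamini and Hochberg over all 6324 units). Above it stood a metallothionein unit (MT1E_like), a linker histone unit (HIST1H1E_containing), Cnih3, Mgmt, Pold4, Sod1, Nupr1 and 6 units without an informative symbol, with departures of 0.98 to 4.67. Below it stood Cadps2, G3bp2 and Tmem170a, with departures of -0.74 to -0.61. In 7 of the 13 units above and in all 3 below, the 3 Ent libraries lay outside every IBA and ET library. Among all single-gene units, 94 (2.00%) had their 3 Ent libraries above and 84 (1.79%) below all 6 libraries of the ends. At an adjusted p of 0.001 no unit was called by edgeR, while 406 units above (8.63%) and 307 below (6.52%) had an unadjusted p of 0.05 or less, and DESeq2 called 129 above and 87 below at 0.05. Against the midpoint of the linear levels the order turned, with 276 units above and 575 below at an unadjusted p of 0.05 or less in limma. The counts of called units moved with single libraries. There were 5 above and 0 below without Ent replicate 1, 6 and 1 without IBA replicate 3, 7 and 2 without IBA replicate 1, 8 and 3 without ET replicate 1, 22 and 5 without SA replicate 1, and 46 and 9 without SA replicate 2, and 1 was below without Ent replicate 2 or without Ent replicate 3.

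**Figure D1:**
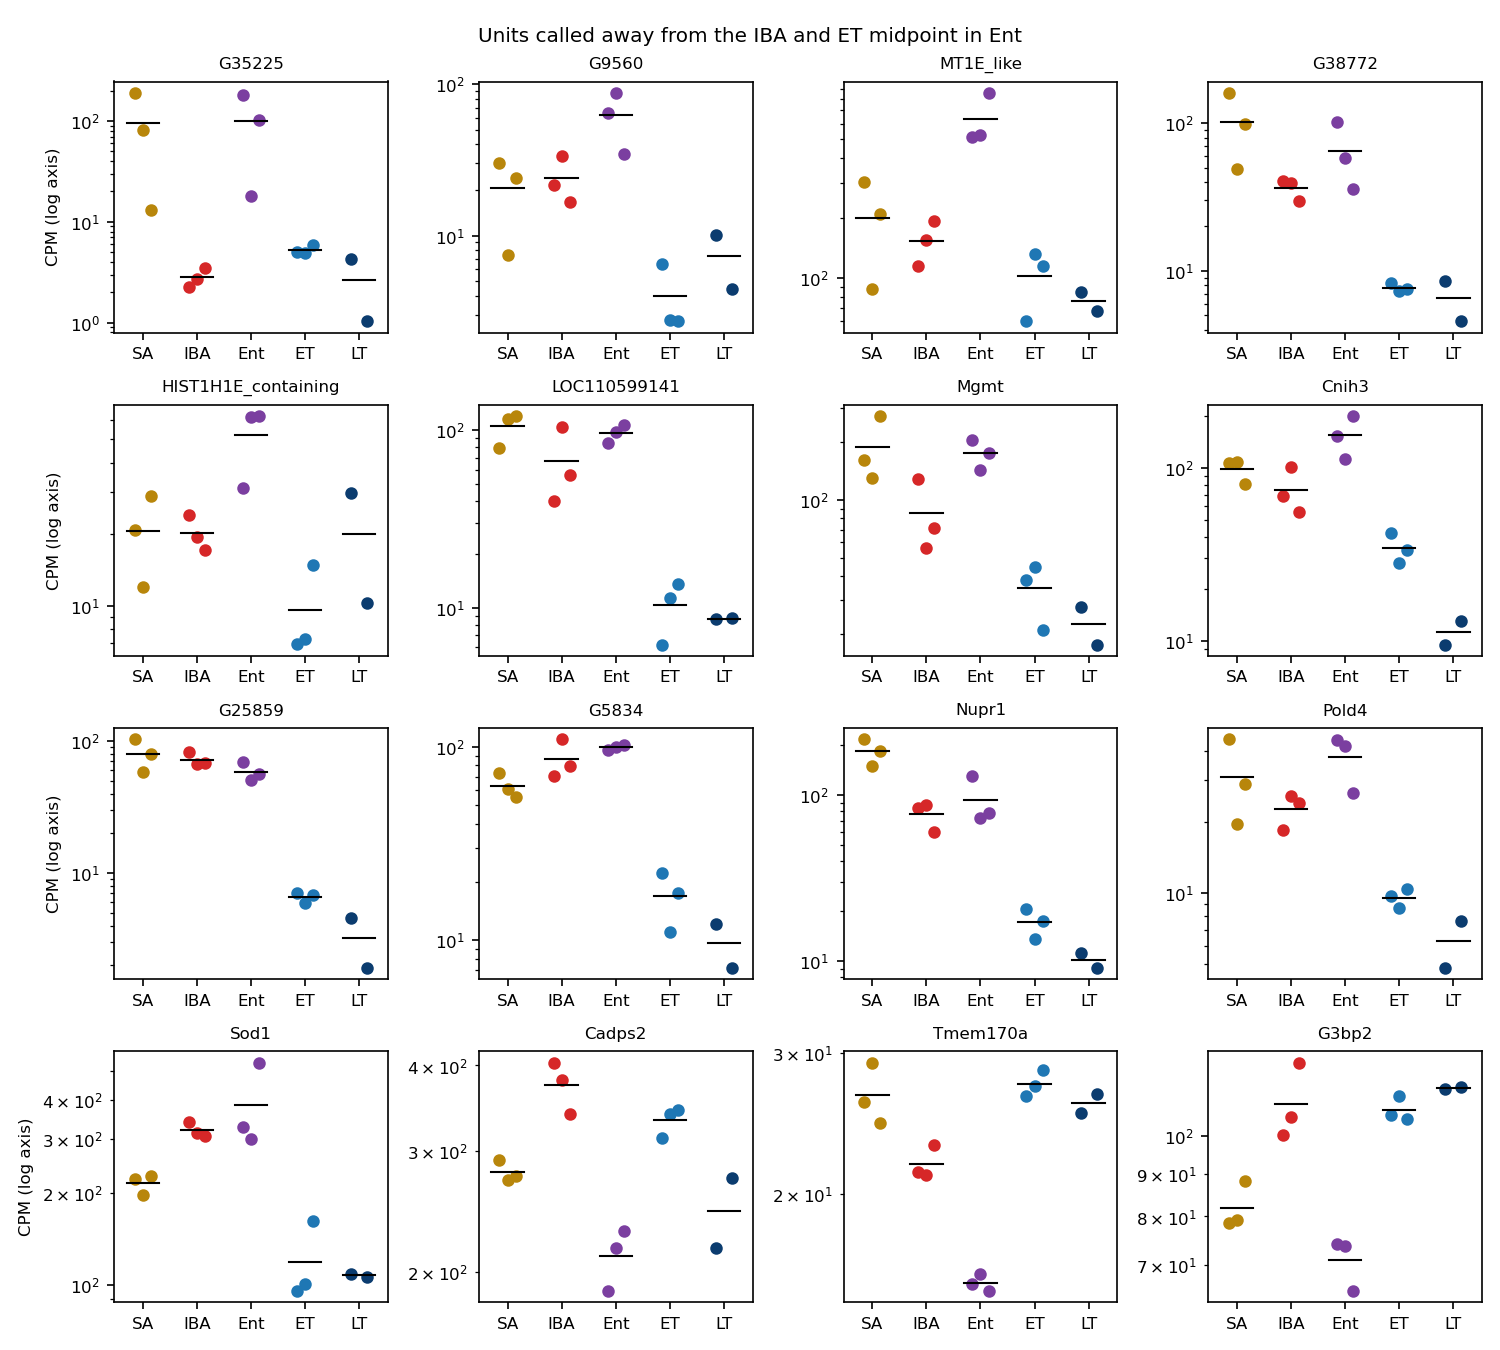
Normalised level (CPM, log axis) of the 16 called single-gene units in each library of SA, IBA, Ent, ET and LT. Points are libraries and bars are group means; 13 units lie above the midpoint in Ent and 3 below it.

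Metallothioneins are small cysteine-rich proteins that bind zinc and copper and are induced by metals, glucocorticoids and oxidative stress. MT1E_like, on the minus strand of chromosome 16 of HiC_Itri_2 from 50700697 to 50710496, had 114, 154 and 192 CPM in the IBA libraries, 516.5, 525 and 859 in Ent and 60.1, 131 and 114 in ET. The 3 Ent libraries were all higher than the 6 others, and IBA and ET overlapped. IBA averaged 153 ± 39.4 CPM, Ent 633 ± 195 and ET 102 ± 37.3 (mean and SD of 3 libraries). The departure was 2.34 (standard error 0.33, edgeR adjusted p = 0.0087), made of 2.04 over IBA (adjusted p = 0.0079) and 2.64 over ET (adjusted p = 0.0011). It was called in each of the 31 alternative settings in which it was tested, those that left out 1 library included, with departures of 2.06 to 2.78.

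The adjoining unit, 5803 nt away on the same strand, joins MT1G_like and MT2A_like and reads over both cannot be divided. It had 186, 269 and 465 CPM in IBA, 1600, 1062 and 2318 in Ent, and 74.2, 90.9 and 223 in ET. Its departure was the larger, 3.06 (standard error 0.42, edgeR adjusted p = 0.0076), and again the Ent libraries stood clear of all the others. SA libraries reached 687, 308 and 932 CPM, between those of IBA and Ent for the most part, and the LT libraries 83.1 and 46.5. Metallothionein copies are near-identical in sequence. The paper counted uniquely aligned reads, so reads that fit several copies may be missing from both units. These were the only units of the table with a metallothionein name, a family looked up after its values were seen.

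Linker histones close the nucleosome and are encoded by short genes, the H1.0 form being the one kept by cells that have stopped dividing. HIST1H1E_containing, on the plus strand of chromosome 8 from 1571179 to 1576025, had 24.2, 19.4 and 17.2 CPM in IBA, 31.3, 62.3 and 62.6 in Ent and 6.92, 7.27 and 14.8 in ET. Every Ent library was above the 6 others, with Ent replicate 1 nearest to them. The departure was 1.89 (standard error 0.36, edgeR adjusted p = 0.041), and the difference from IBA alone, 1.36, did not pass (adjusted p = 0.052). Its call was lost without any single IBA or Ent library and without ET replicate 1 or 2 (adjusted p of up to 0.143). The unit joining Gcat with H1F0, the gene of H1.0, had 58.8, 76.5 and 54.0 CPM in IBA, 139, 143 and 123 in Ent and 46.5, 33.0 and 48.4 in ET, a departure of 1.38 (standard error 0.18, edgeR adjusted p = 0.0076). The other 2 linker histone units of the table, HIST1H1C_containing and a merged unit with HIST1H1E, departed by 1.56 and 1.13 without passing (edgeR adjusted p = 0.066 and 0.073). The 4 linker histone units had a median departure of 1.47. This group was drawn up after the values were seen, and no test of it was made.

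Cnih3, a cornichon-family protein known as an auxiliary subunit of glutamate receptors, lies on the minus strand of chromosome 9 from 53020885 to 53036225. Its libraries had 69.1, 101 and 55.4 CPM in IBA, 153, 113 and 200 in Ent and 41.8, 28.3 and 33.7 in ET. Ent was thus highest and ET lowest, with no overlap among the 3 groups. The departure of 1.61 (standard error 0.21) had the smallest p among single-gene units (edgeR adjusted p = 0.0076), and it too was called in all 31 alternatives in which it was tested. Against IBA alone it was higher by 1.05 (adjusted p = 0.018).

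Mgmt encodes the enzyme that takes alkyl groups off guanine in damaged DNA, and Pold4 the smallest subunit of DNA polymerase delta. Mgmt, on the minus strand of chromosome 1 from 8630091 to 8816191, had 129, 56.0 and 71.5 CPM in IBA, 205, 142 and 175 in Ent and 38.1, 44.8 and 21.1 in ET. Its departure was 1.68 (standard error 0.30, edgeR adjusted p = 0.032). Pold4, on the plus strand of chromosome 3 from 5942175 to 5946372, had 18.5, 25.7 and 24.1 CPM in IBA, 44.2, 41.9 and 26.5 in Ent and 9.72, 8.64 and 10.4 in ET, with a departure of 1.34 (standard error 0.25, edgeR adjusted p = 0.039). In both genes the Ent libraries lay above all IBA and ET libraries, closely so for replicate 3 of Pold4, and neither passed against IBA alone (adjusted p = 0.069 and 0.113). The call of Mgmt was lost without IBA replicate 2 or 3, Ent replicate 1 or 3, or ET replicate 1 or 3, and that of Pold4 without any single library of the ends or without Ent replicate 1 or 2.

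Among called single-gene units, the largest departures belonged to units with a number for a name, which no annotation used here ties to a gene. G35225, 7048 nt on the minus strand of chromosome 7 from 92032039, had 2.27, 2.72 and 3.51 CPM in IBA, 180, 17.8 and 102 in Ent and 5.01, 4.91 and 5.91 in ET. It was low in all 6 libraries of the ends and in LT (4.23 and 1.03) but as uneven in SA (190, 82.2 and 13.1) as in Ent. Its departure was 4.67 (standard error 0.74, edgeR adjusted p = 0.014), higher than IBA by 5.10 (adjusted p = 0.0078) and than ET by 4.24 (adjusted p = 0.006). G9560, 2527 nt on the plus strand of chromosome 13 from 28318589, had 21.6, 33.7 and 16.6 CPM in IBA, 64.7, 87.5 and 34.7 in Ent and 6.48, 2.75 and 2.71 in ET. The departure of G35225 is measured against ends of few counts, 2.83 CPM in IBA and 5.27 in ET on average. Its size is thus uncertain (2.16 to 5.17 over 30 alternatives), and G35225 is absent where every library must have at least 10 counts. G35225 was not called without IBA replicate 1 or 3, Ent replicate 1, or ET replicate 1 or 2 (adjusted p of up to 0.0695). The lowest Ent library of G9560 was barely above the highest IBA library, and the departure was 2.66 (standard error 0.43, edgeR adjusted p = 0.014), a call lost without IBA replicate 1 or 3, Ent replicate 1 or 2, or ET replicate 2 or 3.

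The other 6 units called above the midpoint were of another kind, since their Ent libraries overlapped those of IBA and stood well above a low ET. Sod1, the cytosolic copper and zinc superoxide dismutase, had 340, 313 and 305 CPM in IBA, 328, 299.5 and 530 in Ent and 95.7, 101 and 161 in ET. Only Ent replicate 3 stood above the IBA libraries, and the departure was 0.98 (standard error 0.19, edgeR adjusted p = 0.041) with a difference from IBA of 0.27 (adjusted p = 0.426). Without Ent replicate 3 it was not called (adjusted p = 0.119), nor without SA replicate 3, Ent replicate 1, ET replicate 1 or 2, or any single IBA or LT library. Nupr1, a small stress-induced chromatin protein, had 83.5, 87.4 and 60.2 CPM in IBA, 131, 72.9 and 77.8 in Ent and 20.8, 13.6 and 17.6 in ET, a departure of 1.36 (standard error 0.21, edgeR adjusted p = 0.011). Both genes thus had about their warm level in Ent and a lower one in ET, and for Nupr1 the difference of Ent over ET was 2.44 (adjusted p = 0.00027).

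LOC110599141, G5834 and G38772 were also low in ET and overlapped IBA in Ent, though in G38772 all but replicate 3 of the Ent libraries were above IBA, with means of 66.9, 86.6 and 36.6 CPM in IBA, 96.6, 99.3 and 65.3 in Ent and 10.4, 17.0 and 7.67 in ET, and departures of 1.88, 1.37 and 1.96 (edgeR adjusted p = 0.011, 0.011 and 0.032). G25859 was the only called single-gene unit whose Ent mean lay between the ends: 82.4, 66.5 and 68.3 CPM in IBA, 69.3, 50.3 and 56.2 in Ent and 7.07, 5.89 and 6.86 in ET. It stood near the warm end, 0.30 under IBA and 3.14 over ET, for a departure of 1.42 (standard error 0.21, edgeR adjusted p = 0.011). No called single-gene unit with a symbol lay between the ends. Over the 13 units called above, all 13 passed at 0.05 for Ent against ET, and 3 for Ent against IBA. Both differences are parts of the contrast that chose the units, so these counts follow in part from the choice. The shares of all single-gene units that passed in them are not given here. Without Ent replicate 1 the calls of Nupr1, G5834 and G25859 were lost (adjusted p = 0.0695, 0.0534 and 0.0695), and that of G38772 was lost without any single library of the ends or without Ent replicate 1 or 2, while LOC110599141 was called without each library.

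The 3 units called below the midpoint were lower in Ent than at both ends, by modest amounts that were even among libraries. Cadps2, a calcium-dependent activator of dense-core vesicle release, spans 506760 nt on the minus strand of chromosome 2 from 49191607. Its libraries had 404, 381 and 340 CPM in IBA, 187, 216 and 229.5 in Ent and 314, 340 and 345 in ET. Each Ent library was under all 6 others, and IBA and ET overlapped. The departure was -0.74 (standard error 0.11, edgeR adjusted p = 0.011), with differences of -0.83 from IBA (adjusted p = 0.0032) and -0.66 from ET (adjusted p = 0.0026). The LT libraries, at 217 and 274 CPM, were near Ent, so this dip was not seen against late torpor (adjusted p = 0.262). Cadps2 was called without each library except Ent replicate 1 (adjusted p = 0.0695).

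G3bp2, an RNA-binding protein of stress granules, lies on the plus strand of chromosome 14 from 11795211 to 11874867. It had 100, 105 and 122.5 CPM in IBA, 74.2, 73.6 and 65.1 in Ent and 106, 112 and 105 in ET, with the Ent libraries clear of the rest. Its departure was -0.61 (standard error 0.10, edgeR adjusted p = 0.021), nearly the same against IBA (-0.62, adjusted p = 0.0056) as against ET (-0.60, adjusted p = 0.003). SA libraries were also low, at 78.6, 79.2 and 88.2 CPM, and did not pass against Ent (adjusted p = 0.211), whereas LT was higher than Ent (114 CPM in mean, adjusted p = 0.0025). The call was lost without IBA replicate 3 or any single Ent library (adjusted p of up to 0.083).

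Tmem170a, a small membrane protein of the endoplasmic reticulum and nuclear envelope, is on the plus strand of chromosome 16 from 35405155 to 35420377. It had 21.3, 21.1 and 23.0 CPM in IBA, 15.4, 15.9 and 15.1 in Ent and 26.5, 27.3 and 28.6 in ET, in 3 groups that did not overlap. SA and LT libraries, at 24.5 to 29.2 CPM, were all above Ent as well (adjusted p = 0.0032 and 0.0043). The departure was -0.66 (standard error 0.12, edgeR adjusted p = 0.039). Of the 14 fits that left out 1 library, only those without SA replicate 1 or 2 made the call again. The adjusted p reached 0.173 without Ent replicate 1. Among the 17 other alternatives the unit was called in 11.

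Next below were 2 genes that did not pass. Gcsh, the hydrogen carrier of the glycine cleavage system, had a departure of -0.81 (standard error 0.16, edgeR adjusted p = 0.0504), and its libraries had 31.3, 30.3 and 28.6 CPM in IBA, 24.6, 18.8 and 23.0 in Ent and 45.9, 57.4 and 46.4 in ET. Mdh1, the cytosolic malate dehydrogenase, had a departure of -0.73 (standard error 0.15, edgeR adjusted p = 0.06) for another reason of shape: at 66.7, 69.2 and 72.2 CPM in Ent it was level with IBA (73.9, 70.6 and 67.4) and well under ET (139, 241 and 185). On the upper side, Znf594 and Tcn2 were the first units past the threshold, at adjusted p = 0.0504 and 0.051.

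**Figure D2:**
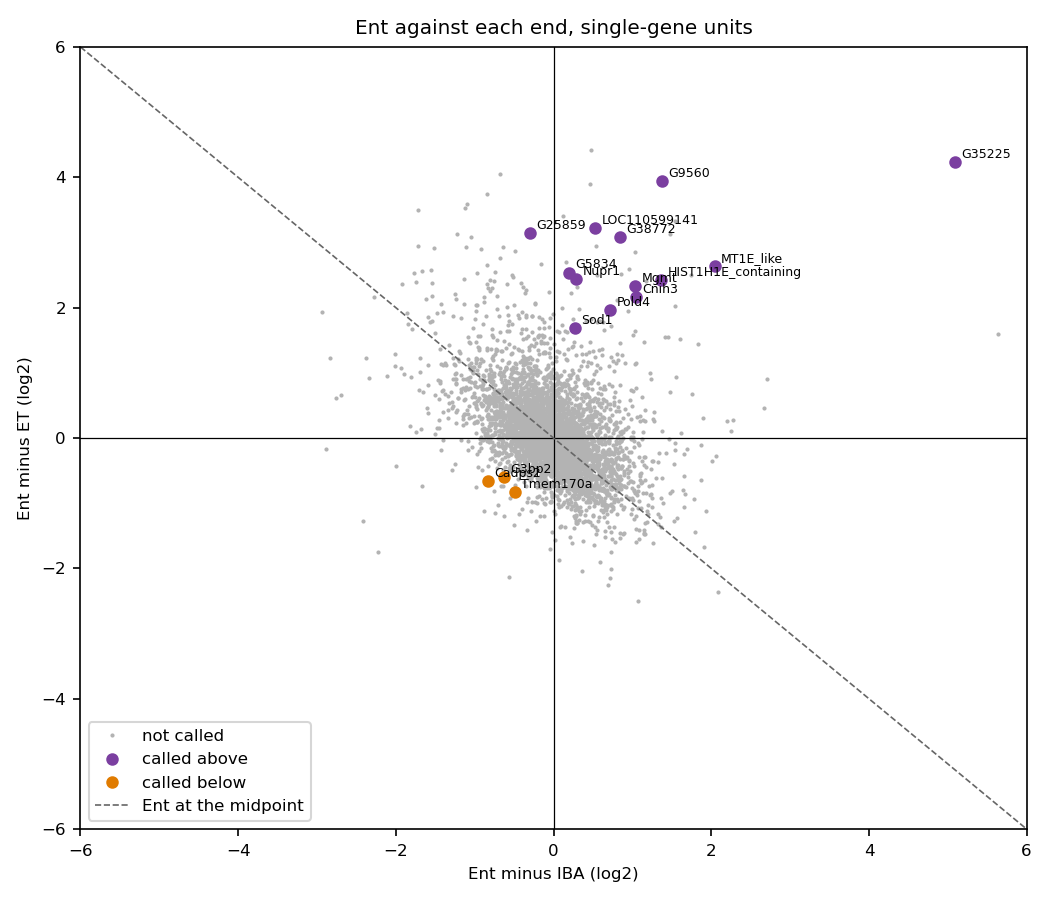
Ent minus IBA against Ent minus ET on the log2 scale for 4705 single-gene units, with the called ones named. The dashed line marks Ent at the midpoint; the upper right quadrant holds units higher in Ent than at both ends and the lower left quadrant units lower than both.

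Whether Ent passed beyond both ends was tested on its own, by taking the larger p of Ent against IBA and of Ent against ET. No unit was called above or below both ends by edgeR after adjustment over all units. Among single-gene units the smallest adjusted p was 0.356 above (MT1E_like) and 0.658 below (Cadps2 and G3bp2). By the larger of both unadjusted p-values, 53 units stood above both ends and 29 below at 0.05 or less. DESeq2 called 2 above, MT1E_like and G35225, and 2 below, G3bp2 and Cadps2, and limma-voom 0 and 0. By mean alone, 12 of the 13 units called above the midpoint were above both ends and all 3 called below were below both.

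Some of the units that ranked next in that test are described here for their known roles, picked after their values were seen from the 15 first on each side, and none of them passed. Above both ends they included Arsa, the lysosomal arylsulfatase A, with 49.7, 62.5 and 57.0 CPM in IBA, 82.9, 94.9 and 82.3 in Ent and 68.0, 48.3 and 61.9 in ET, and Emc10, a subunit of the membrane protein insertion complex, at 47.5 ± 4.00, 71.7 ± 4.83 and 49.2 ± 6.57 CPM in the same order (SD of 3 libraries). Below both ends were Xpo1, the main nuclear export receptor, with 107, 108 and 137.5 CPM in IBA, 80.1, 67.3 and 78.3 in Ent and 103, 124 and 119 in ET, and Tpr, a nucleoporin of the nuclear basket, at 119 ± 14.0, 88.6 ± 4.42 and 119 ± 11.2 CPM (SD, n = 3 each). Lmnb1, which encodes lamin B1, was at 82.8 ± 3.30, 63.2 ± 2.82 and 90.8 ± 10.9 CPM, and Psmd11, a proteasome lid subunit, at 218 ± 9.79, 170 ± 5.33 and 222 ± 15.2 CPM (SD, n = 3 each).

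Merged units, in which overlapping genes share 1 count, were kept apart. Of 1619, 12 were called above the midpoint and 0 below, beyond the 13 and 3 given above, and 9 of the 12 had their Ent libraries clear of both ends. The unit of Gpn2, Gpatch3 and Nr0b2 had 159, 230 and 229 CPM in IBA, 549, 459 and 473.5 in Ent and 205, 279 and 236 in ET, a departure of 1.15 (standard error 0.14, edgeR adjusted p = 0.0073). It contains the gene of SHP, a nuclear receptor without a DNA-binding domain that represses bile acid synthesis, but the counts cannot be assigned to 1 of the 3 genes. A unit over 4 let-7 microRNA names averaged 111 CPM in Ent against 69.9 in IBA and 68.9 in ET, with a departure of 0.67 (edgeR adjusted p = 0.011). The unit of Lsr, Usf2 and Hamp, the last being the gene of the iron hormone hepcidin, departed by 1.32 (edgeR adjusted p = 0.039), with 244, 477 and 380 CPM in IBA, 612, 349 and 644 in Ent and 147, 81.3 and 146 in ET.

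In the unit of MIR122, the microRNA most typical of hepatocytes, the departure of 1.06 (edgeR adjusted p = 0.039) came with an Ent level that equalled that of IBA, at 2913, 3911 and 3536 CPM in IBA, 3384, 3355 and 3554 in Ent and 667, 756 and 927 in ET. A unit with a pair of U1 small nuclear RNA names had 39.5, 73.4 and 49.5 CPM in IBA, 116, 130 and 138 in Ent and 4.86, 2.95 and 9.90 in ET, a departure of 2.83 (edgeR adjusted p = 0.0073). Units with a small nuclear RNA name did not share this departure as a family. Of 61, all merged, 25 had a positive departure, the median was -0.03, and 3 were called above and 0 below, beside 12 and 0 of all 1619 merged units.

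Over all single-gene units the departures were centred on 0, with a median of -0.01 and quartiles of -0.16 and 0.17. By mean, 760 units were above both ends, 765 below both, 1809 between them and nearer IBA, and 1371 between them and nearer ET. Units that changed between the ends were examined by their direction. The 1278 that were higher in ET than in IBA (27.2%, edgeR adjusted p of 0.05 or less) had a median departure of -0.07, and the 1360 that were lower in ET (28.9%) one of 0.05. Against the midpoint of the linear levels the medians were -0.15 and -0.06, so that the second turned. By log2 means, more units between the ends were nearer IBA than nearer ET (711 against 441 and 676 against 524). Of the 13 units called above, 10 were lower in ET than in IBA at 0.05.

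The scale of the midpoint bears on these counts. Against the midpoint of the linear levels, which lies above that of the log2 levels, limma called 17 units above and 33 below, and the median departure was -0.07. In limma's test against the log2 midpoint the numbers were 20 and 4, so that the excess of calls above held on the log2 scale alone. Of the 16 units called in edgeR, 11 were called against the linear midpoint, with the same libraries.

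Departures differed with the length of the unit. Single-gene units were divided into 5 groups of 941 by length. In the shortest group, 775 to 16100 nt, the median departure was 0.12 and 200 of 941 units (21.3%) had an unadjusted p of 0.05 or less above the midpoint, against 45 (4.78%) below. The medians were 0.01, -0.05, -0.06 and -0.01 in the next 4 groups, and in the middle one, 27779 to 46940 nt, and the next, 46954 to 88900 nt, the order was turned, with 5.84% above and 10.6% below and 3.4% above and 7.97% below. Of the 13 units called above, 11 were in the shortest group, and Mgmt, at 186101 nt, was in the longest. The shortest group held 7.14, 8.09 and 7.48% of the single-gene counts in IBA, 8.28, 8.42 and 7.56% in Ent and 7.90, 7.16 and 7.32% in ET, so that the libraries overlapped in this share. The median of the shortest group was 0.03 against the linear midpoint, 0.25 with LT as the cold end and 0.04 with Ent represented by replicate 3 alone.

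**Figure D3:**
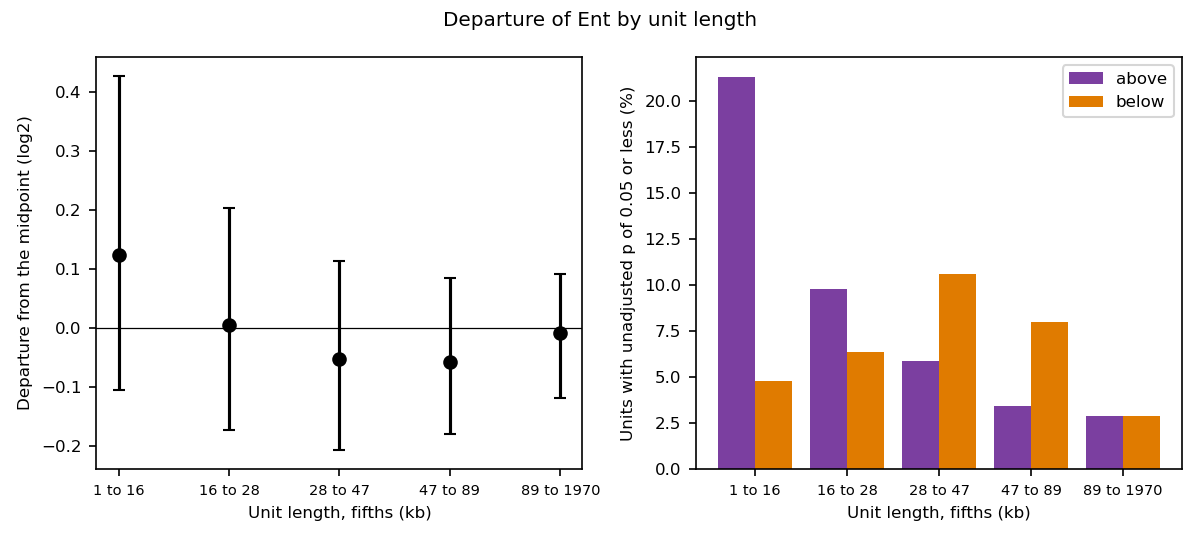
Left, median departure of Ent from the midpoint (log2, bars show quartiles) by unit length, in 5 groups of 941 units, against the log2 midpoint; right, percentage of units in each group with an unadjusted p of 0.05 or less above or below the midpoint. The shortest group, with a median of 0.12, had 21.3% above and 4.78% below.

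Among the 197 single-gene units with a G or ENSSTOG number in place of a symbol the median departure was 0.38 (0.165 against the linear midpoint), and 70 (35.5%) had an unadjusted p of 0.05 or less above the midpoint and 8 (4.06%) below. The 4396 units with a gene symbol had a median of -0.02, with 7.05% above and 6.64% below. The numbered units were short, with a median of 12567 nt against 38003.5 nt, and the parts of length and annotation were not tested.

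The gene lists were read in the same way, by counts at an unadjusted p of 0.05 beside the 8.63% above and 6.52% below of all single-gene units, since only 1 member of any list, Sod1 among the genes of xenobiotic and oxidant defence, was called after adjustment. Other midpoints and ends had other shares. Of all 4705 single-gene units, 276 were above and 575 below against the linear midpoint. They were 584 and 561 with SA as the warm end, and 683 and 575 with SA and LT as the ends. The counts of list members are descriptions, and none of the members named below passed for its departure except Sod1.

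Immediate early genes are switched on within minutes by growth factors, stress or hormones, and their units are short. Of 26 with a unit of their own, 7 were above and 1 below, with a median departure of 0.44. That median was 0.12 against the linear midpoint (3 above and 1 below), 0.04 with SA as the warm end (10 and 5) and 0.17 without Ent replicate 3. Gadd45g, a stress sensor of the GADD45 family, had 35.8, 110 and 35.1 CPM in IBA, 124, 81.3 and 122 in Ent and 22.7, 12.8 and 21.2 in ET, a departure of 1.69 (standard error 0.38, edgeR adjusted p = 0.07). Dusp1, the phosphatase that turns off MAP kinases, departed by 1.20 (standard error 0.37, edgeR adjusted p = 0.157), and its libraries were uneven in Ent, at 102, 62.6 and 219 CPM. Egr1, a zinc finger factor, was at 14.5, 81.0 and 36.9 CPM in Ent, below or within the 58.7 to 114 of IBA and far above the 0.98 to 4.42 of ET. Csrnp1 was the member below, at -0.78. The median length of these units was 8499 nt, in the range of the shortest length group.

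Glucocorticoids and low insulin turn on fasting genes in the liver. Of 27 such genes, 8 were above and 0 below, with a median of 0.27, which was 0.14 against the linear midpoint (4 above and 2 below) and 0.06 with SA as the warm end (4 and 1). Ddit4, an inhibitor of mTORC1 that is also listed among integrated stress response genes, had 20.5, 39.3 and 34.8 CPM in IBA, 190, 39.8 and 47.3 in Ent and 11.8, 6.29 and 9.10 in ET, so that its departure of 2.44 (standard error 0.62, edgeR adjusted p = 0.092) leaned on Ent replicate 1. Pck1, the gluconeogenic enzyme, was as high in Ent (2071, 1646 and 1432 CPM) as in IBA (1081, 2053 and 1482) and low in ET (398, 104 and 288), a departure of 1.43 (edgeR adjusted p = 0.081). Lpin1, a phosphatidate phosphatase also listed with lipid synthesis, took the cold level: 916, 714 and 595 CPM in IBA, 4576, 1783 and 4405 in Ent and 3976, 1832 and 3063 in ET. It was higher in Ent than in IBA by 2.27 (adjusted p = 0.0079), and its departure was 1.28 (edgeR adjusted p = 0.121). Arrdc3 had the lowest departure of the list, -0.80.

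Chaperones went the other way. Of 30 genes for heat shock factors and chaperones, 8 were below and 1 above, and 25 of the 30 had a negative departure, with a median of -0.17 (-0.25 against the linear midpoint, with 0 above and 9 below, and -0.33 with SA as the warm end, with 1 and 12). By mean, 11 of the 30 were below both ends in Ent and 0 above both, beside 765 and 760 of all 4705 single-gene units. Hsf2, a heat shock transcription factor, still had its warm level: 72.8, 70.0 and 82.4 CPM in IBA, 66.9, 74.1 and 87.3 in Ent and 158, 199 and 157 in ET, a departure of -0.58 (standard error 0.14, edgeR adjusted p = 0.073). Hsp90aa1, the inducible HSP90, departed by -0.66 (edgeR adjusted p = 0.181). Dnaja1, an HSP70 co-chaperone, was in contrast lowest in Ent, at 23.2, 19.2 and 15.1 CPM against 51.4, 37.4 and 52.5 in IBA and 27.2, 24.4 and 28.9 in ET, with a departure of -0.89 (standard error 0.25, edgeR adjusted p = 0.116). Hspa5, the HSP70 of the endoplasmic reticulum, had all 3 Ent libraries (98.1, 81.8 and 78.3 CPM) under those of IBA (111 to 144) and ET (131 to 189.5), and departed by -0.74 (edgeR adjusted p = 0.304).

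The 31 genes of the unfolded protein and integrated stress responses were divided, with 5 above, 2 below and a median of -0.07, and against the linear midpoint with 2 above, 3 below and a median of -0.13. By mean, 11 of the 31 were below both ends in Ent and 2 above both, beside 765 and 760 of all 4705 single-gene units. The lowest member of the unfolded protein and integrated stress response list was Hspa5, described above with the chaperones. Atf5, a transcription factor of that response, had reached the cold level in Ent (713, 738 and 581.5 CPM against 142, 232 and 268 in IBA and 666, 898 and 842 in ET), with a departure of 0.71 (edgeR adjusted p = 0.106). Among 49 cold-inducible and splicing regulators, 2 were above and 7 below with a median of -0.04, and against the linear midpoint 1 and 15 with a median of -0.07. Tra2b, a splicing activator, had 245, 230 and 256 CPM in IBA, 372, 376 and 403 in Ent and 1260, 1081 and 943 in ET, and its departure was -0.43 (standard error 0.13, edgeR adjusted p = 0.141). Luc7l, a U1 snRNP-associated protein, had 102, 97.8 and 91.8 CPM in Ent, within the range of IBA (92.9 to 106) or just under it, and departed by -0.44 (edgeR adjusted p = 0.07).

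The lists of hepatic metabolism had medians above 0 against the log2 midpoint of IBA and ET. Of 43 genes of amino acid, urea and bile acid metabolism, 9 were above and 1 below (median 0.24), of 51 of xenobiotic and drug metabolism 12 and 1 (median 0.25), of 25 of lipid and cholesterol synthesis 4 and 1 (median 0.25), of 25 of fatty acid oxidation and ketogenesis 4 and 0 (median 0.19), and of 33 for plasma proteins, coagulation and complement 4 and 0 (median 0.17). CYP8B1, the sterol 12-alpha-hydroxylase of bile acid synthesis, had 19.9, 19.0 and 23.6 CPM in IBA, 30.4, 35.2 and 20.6 in Ent and 1.91, 0.98 and 2.71 in ET, a departure of 2.18 (standard error 0.52, edgeR adjusted p = 0.073). Slc10a1, the bile acid uptake carrier, had 402, 314 and 293 CPM in IBA, 350, 282 and 344 in Ent and 85.1, 92.1 and 95.8 in ET, with a departure of 0.89 (edgeR adjusted p = 0.095). CYP2E1_like had 745, 1789 and 1243 CPM in IBA, 2152, 1912 and 2213 in Ent and 894, 1036 and 714 in ET, with every Ent library above the others and a departure of 0.99 (standard error 0.28, edgeR adjusted p = 0.116). Reads that fit several near-identical CYP copies may be missing from its count.

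These medians depended on the midpoint and on single libraries. Against the linear midpoint the xenobiotic list had 8 above and 7 below with a median of -0.10, the amino acid list 5 and 1 (0.14), the lipid list 3 and 2 (0.13), the fatty acid oxidation list 1 and 1 (0.09) and the plasma protein list 1 and 2 (0.06). With the Ent library of the IBA season alone the amino acid median was -0.07 and that of fatty acid oxidation 0.03, while that of plasma proteins was 0.41 (8 above and 1 below), and with SA as the warm end the lipid median was -0.01 (5 above and 4 below) and the amino acid median 0.03 (4 and 4). Without Ent replicate 3 the plasma protein median was 0.01, without Ent replicate 1 that of fatty acid oxidation 0.05, and without Ent replicate 2 those of the amino acid and xenobiotic lists 0.14 and 0.10.

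Glud1, the mitochondrial glutamate dehydrogenase, was the amino acid gene below, and it had already reached its cold level in Ent: 354, 390.5 and 378 CPM in IBA, 141, 148.5 and 105 in Ent and 112, 134 and 134 in ET. Its departure was -0.73 (standard error 0.17, edgeR adjusted p = 0.07), and it was lower in Ent than in IBA by a log2 difference of -1.51 (adjusted p = 0.0024). Thrsp, a lipogenic regulator, departed by 1.32 (edgeR adjusted p = 0.077).

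In fatty acid oxidation, Pex11a, a membrane protein of peroxisomes, had its Ent libraries (47.5, 42.6 and 48.0 CPM) above all those of IBA (22.7 to 33.6) and ET (24.0 to 37.2), with a departure of 0.66 (edgeR adjusted p = 0.278). Etfa, a subunit of the electron transfer flavoprotein, was in contrast level with IBA in Ent, at 497, 415 and 418 CPM against 420 to 502, and higher than ET by 0.65 (adjusted p = 0.0062). Among plasma proteins, C8b, of the terminal complement complex, had 266.5, 462 and 710 CPM in Ent against 209 to 368 in IBA and 198 to 234 in ET, a departure of 0.97 (edgeR adjusted p = 0.179). Nfe2l2, the transcription factor NRF2, was the gene of oxidant defence below the midpoint, at -0.33 (edgeR adjusted p = 0.241), with 347, 330 and 305 CPM in Ent, near the 342 to 362 of ET and under the 464 to 498 of IBA (adjusted p = 0.024 against IBA). Keap1, which holds NRF2 in the cytosol, was at its cold level in Ent as well and departed by 0.32 (edgeR adjusted p = 0.259). Prdx3, a mitochondrial peroxiredoxin, had 76.96, 92.1 and 82.4 CPM in Ent, above all 6 libraries of the ends, and departed by 0.47 (edgeR adjusted p = 0.213).

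Neu1, a lysosomal sialidase, had 10.2, 12.5 and 14.1 CPM in IBA, 49.4, 49.0 and 43.1 in Ent and 120, 96.4 and 91.3 in ET, and its departure was 0.40 (edgeR adjusted p = 0.207). Ent differed there from both IBA (1.93, adjusted p = 0.0003) and ET (-1.12, adjusted p = 0.00082). Nr1d1, the clock repressor REV-ERB alpha, had 28.4, 49.0 and 58.5 CPM in Ent, against 11.9 to 53.1 in IBA and 138 to 296 in ET and thus overlapped IBA, with a departure of -0.72 (standard error 0.49, edgeR adjusted p = 0.551).

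Of 64 units for oxidative phosphorylation and the cytosolic ribosome, 12 were above and 0 below, with a median of 0.08 and a median length of 10374 nt. Against the linear midpoint 11 were above and 8 below with a median of 0.00481, and with SA and LT as the ends 27 and 1 with a median of 0.28. The counts of all 4705 single-gene units were 276 and 575 in the first setting and 683 and 575 in the second. In 5 of the 64 the Ent libraries were above all those of the ends, beside 2.00% of all single-gene units and 5.42% of the shortest length group, of which 21.3% were above at an unadjusted p of 0.05 or less. Among these, UQCRB_like, a unit named after a complex III subunit, had 33.5, 27.8 and 39.1 CPM in IBA, 46.5, 45.8 and 49.5 in Ent and 19.6, 27.7 and 29.2 in ET, a departure of 0.69 (standard error 0.16, edgeR adjusted p = 0.07), and Ndufb4, of complex I, had 27.3, 27.7 and 24.2 CPM in Ent and a departure of 0.69 (edgeR adjusted p = 0.096). The lists for RNA polymerase II, elongation and termination (46 units, 1 above and 3 below, median -0.04), for lysosome, vacuolar ATPase and TFEB (30 units, 1 and 2, median -0.05) and for the circadian clock (11 units, 0 and 1, median -0.09) had few members past an unadjusted 0.05 in either direction, and the single clock gene among them was Csnk1d. The clock list moved with the ends: its median was -0.29 against the linear midpoint (0 above and 2 below), -0.51 with SA as the warm end (0 and 5) and -0.61 with SA and LT as the ends (0 and 4). Of all 4705 single-gene units, 575, 561 and 575 were below in the same order. Against the linear midpoint the lysosome list had 0 above and 3 below (median -0.16) and the RNA polymerase II list 1 and 6 (median -0.07). With upper-quartile scaling the medians of the RNA polymerase II, lysosome and splicing lists turned to 0 or just above (0.005, 0.001 and 0.005). The median of all single-gene units moved as well, from -0.00686 to 0.0366, and the 3 lists stayed under it. Polr2a, the largest subunit of RNA polymerase II, departed by -0.34, with Ent at 79.9, 71.5 and 61.1 CPM under all 6 libraries of the ends (edgeR adjusted p = 0.214).

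**Figure D4:**
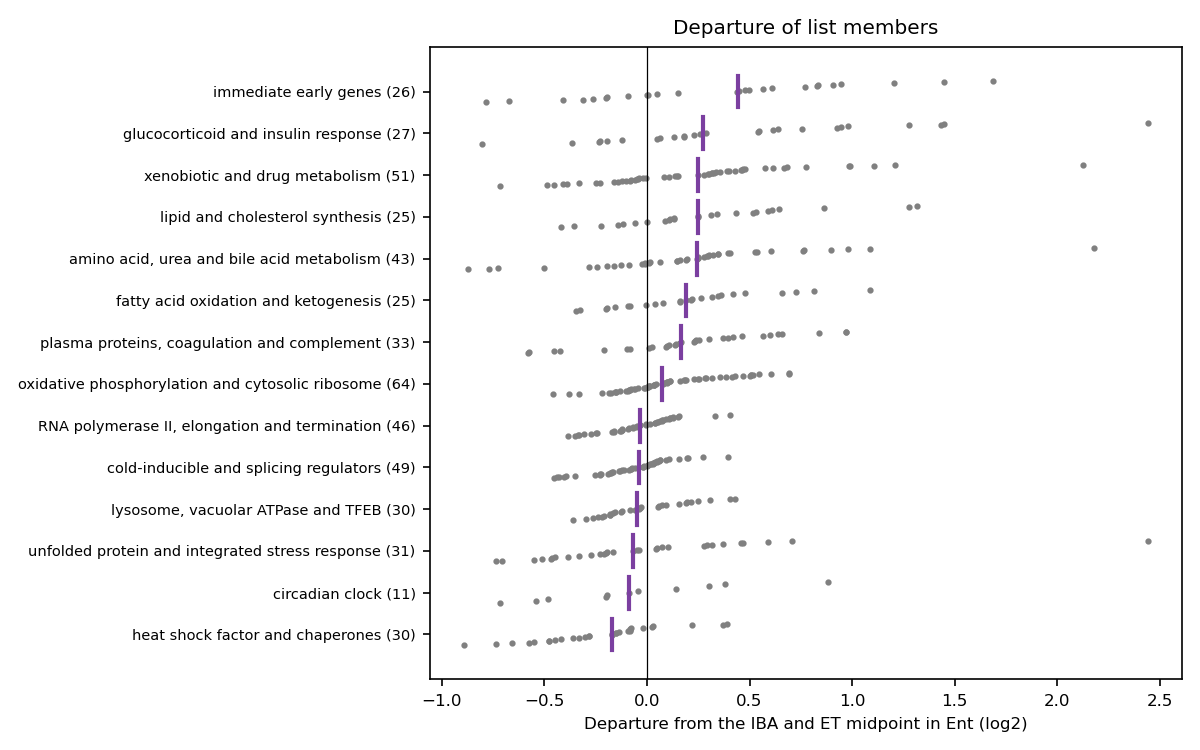
Departure of each member (points) of the 14 gene lists and the list median (bars), in log2, with the number of single-gene units in parentheses. Medians run from -0.17 for heat shock factors and chaperones to 0.44 for immediate early genes.

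In bulk liver, fewer cells of a type and less transcription per cell cannot be told apart. Of 18 hepatocyte markers, 12 had a unit of their own, 4 lay in merged units (Alb and Apoa1 among them) and 2, Cyp2e1 and Serpina1, had none under that name. CYP2E1_like was counted in the xenobiotic list and not among these markers. The 12 had a summed level of 16300, 13100 and 13800 CPM in IBA, 12300, 10300 and 11600 in Ent and 9370, 4520 and 6530 in ET. Ent thus lay between the ends, Apob was the most abundant member, and 4 of the 12 had an unadjusted p of 0.05 or less above the midpoint and 0 below, among them Hnf4a (0.44). Their median was 0.25 against the log2 midpoint and -0.04 against the linear midpoint, where 2 were above and 1 below. The 5 endothelial markers with a unit, with Kdr the most abundant, summed to 257, 257 and 288 CPM in IBA, 287, 249 and 262 in Ent and 237, 152 and 204 in ET. The 2 stellate markers, with Hhip the most abundant, summed to 278, 298 and 413 CPM in Ent against 282 to 365 in IBA and 226 to 273 in ET, and the 4 cholangiocyte markers, with Onecut1 the most abundant and Sox9 (0.99) the 1 above at an unadjusted p of 0.05 or less, to 475, 412 and 362 CPM in Ent against 532 to 605 in IBA and 278 to 343 in ET. No marker of Kupffer cells, lymphocytes, neutrophils or erythroid cells had a unit of its own, so blood and immune cells could not be followed. The part of cell composition in the departures was not tested.

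The SA and LT libraries gave the called units another pair of ends, with the same Ent libraries. Of the 13 units called above, 12 were higher in Ent than in LT and 5 differed from SA at an adjusted p of 0.05. Nupr1 was the one of these that was lower in Ent than in SA (218, 151 and 186 CPM), by a log2 difference of -0.98 (edgeR adjusted p = 0.015). The 13 units had been chosen with these same Ent libraries. The shares of all single-gene units that passed against LT or SA are not given here, so the counts of 12 and 5 are descriptions. With SA and LT as the ends, 270 units were above the midpoint and 149 below. With only the Ent library that shared the season of IBA, 9 units were above the midpoint and 0 below in edgeR, with 275 above and 211 below at an unadjusted p of 0.05 or less. Of the 16 units, MT1E_like (2.78), Cnih3 (1.97), G35225 (4.70) and Sod1 (1.45) were called there, each at an edgeR adjusted p of 0.047, though that library had also entered the choice of the 16 and ET remained of another season. The single library was there taken to vary like the other groups.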

How the data were processed

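GRO-seq libraries of 14 livers were used; 1 LT library of the series' 15 samples has no column and was not used here. The authors trimmed reads with cutadapt, aligned them with BWA to HiC_Itri_2, extended gene bodies from the reads, dropped the start of each body, merged overlapping genes and deposited raw counts per unit from featureCounts (versions not given in the sources used here). All 6324 units were fitted without a filter in edgeR 4.0.16 (R 4.3.3; glmQLFit, TMM, 1 mean per state). Departures were tested by a contrast of states and p-values adjusted over all units (Benjamini-Hochberg, 0.05); counts are of the 4705 single-gene units. CPM used TMM library sizes. Errors are fitted standard errors. Members and lists were chosen with earlier results of these data known.

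Named units were called ones above 5 CPM with a symbol: up to 8 per direction clear of both ends, up to 5 between the ends, list members past both ends, up to 2 without a symbol, and the 5 of smallest p where fewer than 5 were called. Other units were chosen after their values were seen. Of single-gene names, 4063 (86.4%) matched RefSeq symbols of another assembly, used for names only. Alternatives used DESeq2 1.42.0 and limma 3.58.1, other scalings, filters, ends and left-out libraries. Tables and figures used Python 3.11.15, pandas 2.3.3 and matplotlib 3.10.9. Steps were tested on simulated data. No pair of replicates agreed within sampling noise (chi-square per degree of freedom of at least 14.8).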

Additional observations from a re-analysis of the deposited data

How the results depend on the processing

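Counts of single-gene units are given as above and below the midpoint, against 13 and 3 in edgeR. DESeq2 gave 129 and 87, limma-voom 20 above, the 9 libraries of IBA, Ent and ET alone 38 and 8, merged units counted too 25 above, and an adjusted p of 0.001 gave 0 and 0. Against the linear midpoint 33 were below. Only the Ent library of the IBA season left 0 below, from fewer samples. Other ends gave 134 and 42 (LT as cold end), 165 and 103 (SA as warm end), 270 and 149 (SA and LT) and 257 and 145 (SA and LT with a season term); the cause was not tested. Above both ends, where edgeR gave 0, DESeq2 gave 2, and SA as warm end and the ends SA and LT 1 each. Below both ends DESeq2 gave 2 and the others 0.

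Replicate numbers mark different animals, and same-numbered deviations correlated from -0.263 to 0.234. With the replicate block there were 14 above and 1 below, and 12 of the 16 called units were called. Without 1 library, counts ranged from 5 to 46 above and from 0 to 9 below, and 0 throughout above and below both ends. Above, 5 were called without Ent replicate 1, 6 without IBA replicate 3, 7 without IBA replicate 1, 8 without ET replicate 1, 22 without SA replicate 1 and 46 without SA replicate 2. Below, there were 0, 1, 2, 3, 5 and 9 in the same order, and 1 without Ent replicate 2 or without Ent replicate 3. Of the 16 called units, 3 were called without Ent replicate 1 and 7 without IBA replicate 3. The 16 called units, Gcsh and Mdh1 kept the sign of their departure in the settings run for each, but its size moved, for G35225 from 2.16 to 5.17, for G25859 from 0.573 to 1.94 and for Cadps2 from -0.807 to -0.311. Other genes of the text were not followed singly. Scalings other than TMM gave 14 to 19 above and 2 below, and filters on low counts 12 or 13 and 3.

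At the depth of these libraries, 32 of the 6324 units had under 10 counts in at least 1 library.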
